A study of Mus musculus with 9 samples.

Results

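Collagen chain genes encode the separate polypeptide chains from which the collagens of the extracellular matrix are assembled. They were taken as the protein-coding genes of the deposited table whose symbol is Col followed by a number, the letter a and a number, with Col2a1 left out, which gave 43 of the 54532 genes in the table. Of these, 26 had enough counts to be tested among 14004 genes, and the other 17 are given by their counts. The measurements come from ST2 cells, a mouse bone marrow stromal line that can be driven towards osteoblasts, kept for 72 h with vehicle (Veh), with 50 ng/ml recombinant human Wnt3a (rhWnt3a), or with rhWnt3a and 20 µM OSMI (rhWnt3aOSMI), with 3 libraries of poly-A RNA a group. OSMI inhibits O-GlcNAc transferase, the enzyme that attaches O-GlcNAc to proteins inside the cell. The sample titles name the third group rhWnt3aOSMI while its treatment label names OSMI alone, and it was taken as both agents together. No group received OSMI alone, so an effect of OSMI without rhWnt3a cannot be told apart here, and all libraries come from wild-type cells of 1 line.

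A collagen molecule is a triple helix of chains, which may be copies of 1 gene product or come from several genes. Collagens I, III, V and XI form the banded fibrils that give bone, tendon, skin and cartilage their strength, with collagen I as the main protein of bone and collagens V and XI inside the fibrils where they set fibril width. Collagen IV builds the sheet of basement membranes, collagen VI forms beaded filaments around cells, collagens VIII and X are short-chain collagens that form nets, and collagens IX, XII, XIV and XVI sit on fibrils. Collagens II, IX, X and XI are best known from cartilage. Stromal cells and osteoblasts make mostly collagen I, and the newly made chains are hydroxylated and folded in the endoplasmic reticulum, trimmed outside the cell and crosslinked by lysyl oxidases.

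The libraries held 16135898 to 17583945 counts, so that depth was nearly the same in all groups, and 3 counts, the lowest level told from no expression, came to 0.17 to 0.191 CPM, a gene's counts scaled by library totals that were adjusted with edgeR's TMM method. In each group 1 library stood apart from the other 2: Veh replicate 3, rhWnt3a replicate 2 and rhWnt3aOSMI replicate 3, with mean squared log2 differences of 0.373 to 0.454 from the others against 0.111 to 0.119 within the closer pair. The first axis of the deviations from group means (54.8% of their variance) put Veh replicates 1 and 2, rhWnt3a replicates 1 and 3 and rhWnt3aOSMI replicate 3 on one side (side A) and Veh replicate 3, rhWnt3a replicate 2 and rhWnt3aOSMI replicates 1 and 2 on the other (side B). Deviations along it went with gene length, with correlations across genes of −0.31 to 0.38 in single libraries, so results are given below also within each side and without single libraries. Of 9 stromal markers 8 were tested, with a sum of 4492 to 5103 CPM in Veh, 2504 to 2643 in rhWnt3a and 1887 to 2495 in rhWnt3aOSMI. All 5 epithelial markers had 3 counts or fewer in every library, as had the hematopoietic markers Ptprc, Adgre1 and Cd3e and the osteoblast markers Sp7, Ibsp and Dmp1. The 7 osteoblast markers summed to 1747 to 2755 CPM in Veh, 1337 to 1863 in rhWnt3a and 647 to 999.7 in rhWnt3aOSMI, mostly from Spp1. Of 2 tested, Spp1 fell against Veh with both agents (−1.46 ± 0.26, adjusted p = 0.00459), where 9.34% of all tested genes fell. The other tested osteoblast marker went up there without a call (0.56), with no overlap between the groups. Of 2 tested hematopoietic markers, Lyz2 at 0.641 to 9.05 CPM fell against Veh with both agents (−1.65 ± 0.46, adjusted p = 0.0382), and the other was not called (−0.998). The 6 adipocyte markers summed to 64.9 to 83.2, 33.0 to 43.8 and 42.0 to 44.9 CPM, with Adipoq and Plin1 at 3 counts or fewer in every library. Pparg, Fabp4 and Lpl, 3 of 4 tested, fell both with rhWnt3a and with both agents against Veh, where 5.86% and 9.34% of all tested genes fell. When OSMI was added to rhWnt3a, Pparg rose, 1 of 4 tested, where 1.69% of all tested genes rose. The part of these markers in the collagen values was not tested. A gene counted as called where edgeR's adjusted p was below 0.05 and the log2 fold change was above 0.5 or below −0.5. An exact permutation of 3 libraries against 3 gives no p below 0.1, and calls therefore depend on a spread estimated over many genes.

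The stretches just before the starts of Col3a1, Col8a1 and Col11a1 are printed because these genes carry the patterns described below: in that order, a fall when OSMI was added, a rise with rhWnt3a, and a fall with rhWnt3a. They are the 250 bases before the RefSeq start of each gene in GRCm38.p6, which for these 3 genes is also the start in the deposited table, written 5′ to 3′ on the strand of the gene, with capitals marking any match on either strand to TATAAA (as in the TATA box), to CCAAT (the CCAAT box), to GGGCGG (a GC box) or to CTTTGNT, which is a loose form of the site of TCF/LEF factors, through which β-catenin acts. Lines are named by the gene and the interval, Col3a1 at chr1:45311288-45311537 on the plus strand, Col8a1 at chr16:57754738-57754987 on the minus strand and Col11a1 at chr3:114030290-114030539 on the plus strand.
Col3a1: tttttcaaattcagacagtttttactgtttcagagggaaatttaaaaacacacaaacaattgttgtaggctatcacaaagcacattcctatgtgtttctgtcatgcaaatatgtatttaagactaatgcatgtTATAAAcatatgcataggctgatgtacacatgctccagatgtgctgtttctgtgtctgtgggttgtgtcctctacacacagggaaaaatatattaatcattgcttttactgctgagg
Col8a1: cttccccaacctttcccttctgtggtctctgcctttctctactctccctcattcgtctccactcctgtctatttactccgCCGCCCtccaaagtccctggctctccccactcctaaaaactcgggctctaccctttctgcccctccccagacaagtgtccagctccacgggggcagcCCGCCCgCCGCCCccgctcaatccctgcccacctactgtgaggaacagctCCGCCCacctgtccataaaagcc
Col11a1: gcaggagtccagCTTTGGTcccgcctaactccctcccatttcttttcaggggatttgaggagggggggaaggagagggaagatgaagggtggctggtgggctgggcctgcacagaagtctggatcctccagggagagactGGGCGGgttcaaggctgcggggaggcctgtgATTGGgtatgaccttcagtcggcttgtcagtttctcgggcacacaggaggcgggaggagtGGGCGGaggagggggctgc
Col3a1 held a TATAAA 117 to 112 bases before the start and none of the other motifs. Col8a1 held GGGCGG 4 times, all on the opposite strand. Col11a1 held GGGCGG 2 times, CCAAT once on the opposite strand and CTTTGNT once, 238 to 232 bases before the start. GC made up 35.2%, 60.8% and 62.4% of the 3 stretches, with Col3a1 the lowest of the 22 tested collagen genes that have an entry (median 60.2%, against 52.4% over all 32851 entries). Among these 22 genes TATAAA was found in 3 (12.4% of all entries held it), CCAAT in 9 (33.8%), GGGCGG in 14 (32.7%) and CTTTGNT in 4 (16%). A match is a run of letters and says nothing of use by a factor. Col1a1, Col5a2, Col9a3 and Col12a1 had no entry.

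Genes of chains that are built into the same molecule can lie side by side. Col4a1 and Col4a2 run in opposite directions from starts that overlap by 22 bases at chr8:11312805-11312826 in the deposited table (GRCm38), and this shared stretch is printed because the 2 genes are also compared as a pair below, on the plus strand, that of Col4a2:
Col4a1 and Col4a2: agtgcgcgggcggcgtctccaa
Col4a3 and Col4a4 start 71 bases apart in opposite directions, and Col4a5 and Col4a6 1308 bases apart. Col3a1 and Col5a2 lie 24614 bases apart with their ends facing each other, and Col6a1 and Col6a2 lie 85161 bases apart on the same strand.

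Collagen I made up most of the collagen messenger RNA. On the deposited FPKM scale, which divides by gene length and so allows genes to be compared, Col1a1 (ENSMUSG00000001506, chr11:94936224-94953042, plus strand) and Col1a2 (ENSMUSG00000029661, chr6:4504814-4541544, plus strand) together held 51.1% to 57.3% of the FPKM of all collagen chain genes in each of the 9 libraries. Col1a1 measured 1514 ± 349.9 FPKM with Veh (mean ± SD, n = 3), 1038 ± 143 with rhWnt3a and 612 ± 305 with rhWnt3aOSMI, and Col1a2 743 ± 82.9, 663 ± 35 and 449 ± 163. Col6a1 came next in all groups, at 402 ± 73.8 FPKM with Veh. Below it in Veh stood Col11a1 (273 ± 55.6), Col3a1 (253 ± 6.66) and Col5a2 (222 ± 7.61), of which Col11a1 and Col3a1 did not differ beyond the spread of the libraries. Col6a2, Col6a3, Col4a1, Col5a1 and Col4a2 followed in Veh at 147 down to 107 FPKM, each within 1 SD of the next. With rhWnt3a the order changed at 2 places above all: Col11a1 went from rank 4 among the collagens to rank 11 (53.4 ± 2.97 FPKM) and Col8a1 from 14 to 9 (27.4 ± 0.666 to 62.9 ± 2.14). With rhWnt3aOSMI, Col3a1 stood at rank 11, after rank 4 with rhWnt3a (218 ± 5.49 to 55.5 ± 37.6 FPKM). The order of means over all libraries was the same when counts were divided by gene length and TMM-scaled totals.

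As a share of all counts, the 43 genes went from 3.82%, 3.83% and 3.01% in Veh replicates 1 to 3 to 2.74%, 2.32% and 2.72% with rhWnt3a and 1.47%, 1.33% and 2.57% with rhWnt3aOSMI. All rhWnt3a libraries lay below all Veh libraries, and rhWnt3aOSMI replicate 3 lay among the rhWnt3a libraries while the other 2 lay below them. The group means were 3.55% ± 0.469, 2.59% ± 0.240 and 1.79% ± 0.678 (SD, n = 3). Exact permutation tests (two-sided, 3 comparisons) gave p = 0.1 for rhWnt3a against Veh, 0.2 for rhWnt3aOSMI against rhWnt3a and 0.1 for rhWnt3aOSMI against Veh, or 0.15, 0.2 and 0.15 after Benjamini-Hochberg adjustment, 0.1 being the smallest value possible. Within side A the share went from 3.82% and 3.83% to 2.74% and 2.72% with rhWnt3a and stood at 2.57% in the single rhWnt3aOSMI library. Within side B it was 3.01% with Veh, 2.32% with rhWnt3a, and 1.47% and 1.33% with rhWnt3aOSMI. In bulk RNA, fewer cells making collagen and less collagen RNA per cell cannot be told apart, here and in all that follows.

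**Figure D1:**
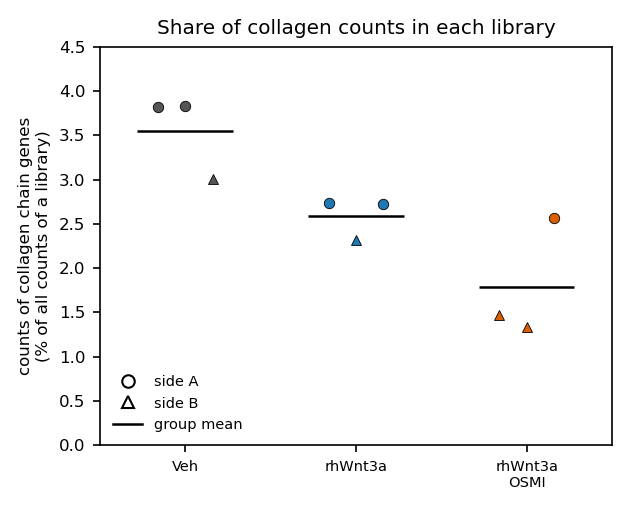
Counts of the 43 collagen chain genes as a percent of all counts (y axis) in each of the 9 libraries by group, with circles for libraries on side A and triangles for side B of the axis that parts the libraries, and bars for group means. The Veh libraries sit between 3.01% and 3.83%, the rhWnt3a libraries between 2.32% and 2.74%, and the rhWnt3aOSMI libraries at 1.33%, 1.47% and 2.57%.

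The first comparison asks how Wnt signaling changed the collagen genes. With rhWnt3a, Col11a1, Col27a1, Col9a1, Col9a3, Col4a1, Col4a2 and Col8a2 fell and Col8a1 rose, while neither chain of collagen I nor Col3a1 was called. Among the called genes, the largest falls were those of Col9a1, Col11a1 and Col27a1, chains of collagens that are known from cartilage. That is 8 of 26 tested collagen genes, 1 higher and 7 lower, where 8.78% of all tested genes were called, 2.92% higher and 5.86% lower. The median log2 fold change of the 26 genes was −0.53, beside 0.04 over all tested genes, and 21 of them had a value below 0. The groups did not overlap for 14 genes lower and 2 higher with rhWnt3a (Col8a1 and Col16a1), where they did not overlap for 26.4% of all tested genes, 14.2% lower and 12.2% higher. Among the 26 are Col8a2, Col9a1 and Col10a1, which reached 10 counts in every library of the Veh group alone and so passed the filter only through the group where they are high.

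Col11a1 (ENSMUSG00000027966, chr3:114030540-114220718, plus strand) encodes the first chain of collagen XI, which lies inside cartilage fibrils and is also made by stromal cells. It measured 3893, 3935 and 2721 CPM in the Veh libraries, 705, 647 and 734 in the rhWnt3a libraries, and 442, 459 and 1136 in the rhWnt3aOSMI libraries, in the order of replicates 1 to 3. Each rhWnt3a library lay far below each Veh library, a 5.06-fold fall (log2 fold change −2.34 ± 0.36 SE, adjusted p = 0.00259) that was −2.44 within side A and −2.07 within side B. Its share of all collagen FPKM went from 6.51% ± 0.322 to 1.8% ± 0.11 (SD, n = 3). Col11a2, the partner chain, stood at 7.7, 8.16 and 7.58 CPM in the Veh libraries, 7.73, 7.9 and 7.9 in the rhWnt3a libraries, and 7.38, 4.88 and 7.52 in the rhWnt3aOSMI libraries, and its log2 fold change with rhWnt3a was 0.01 ± 0.19, adjusted p = 0.991 with a 95% interval of −0.41 to 0.43. Its sign was below 0 under 9 of 24 alternatives. Col27a1 (ENSMUSG00000045672, chr4:63214004-63334991, plus strand), a fibrillar collagen of cartilage, measured 22.3, 21.1 and 9.5 CPM in the Veh libraries, 4.68, 3.47 and 5.2 in the rhWnt3a libraries, and 2.36, 1.84 and 3.85 in the rhWnt3aOSMI libraries, a 3.95-fold fall with rhWnt3a (−1.98 ± 0.36, adjusted p = 0.00684) with no overlap between the groups although Veh replicate 3 held less than the other Veh libraries.

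Collagen IX, which covers cartilage fibrils, was low throughout and lower with rhWnt3a. Col9a1 (ENSMUSG00000026147, chr1:24177610-24252684, plus strand) had 100, 99 and 125 counts with Veh, 6, 16 and 9 with rhWnt3a, and 4, 1 and 10 with rhWnt3aOSMI. The fitted log2 fold change with rhWnt3a was −3.40 ± 0.46, adjusted p = 0.00124. Col9a3 (ENSMUSG00000027570, chr2:180597790-180622189, plus strand) had 32, 24 and 24 counts with Veh, 9, 13 and 9 with rhWnt3a, and 26, 18 and 12 with rhWnt3aOSMI, with −1.39 ± 0.37, adjusted p = 0.0453 for rhWnt3a, and its count in rhWnt3aOSMI replicate 1 lay among those of Veh. Col9a2 had 7, 2 and 1 counts with Veh and 0 in the other 6 libraries. Markers of cartilage cells moved the same way: of 8 on the list 5 were tested and all 5 fell with rhWnt3a (Sox9, Comp, Hapln1, Cnmd and Ucma), where 5.86% of all tested genes fell. The sum over all 8 markers was 309 to 398 CPM in Veh, 82.4 to 106 with rhWnt3a and 69.5 to 122 with rhWnt3aOSMI. Matn1 and Matn3 had 3 counts or fewer in every library. The part of the cartilage markers in the collagen values was not tested.

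Collagen IV, the sheet of the basement membrane, fell in both of its main chains. Col4a1 (ENSMUSG00000031502, chr8:11198423-11312826, minus strand) measured 946, 1024 and 787 CPM in the Veh libraries, 428, 317 and 438 in the rhWnt3a libraries, and 408, 360.2 and 592 in the rhWnt3aOSMI libraries, and Col4a2 (ENSMUSG00000031503, chr8:11312805-11449287, plus strand) 736, 834 and 578 CPM in the Veh libraries, 435, 303 and 451 in the rhWnt3a libraries, and 491, 405 and 619.7 in the rhWnt3aOSMI libraries. Both were lower in each rhWnt3a library than in any Veh library, by 2.33-fold for Col4a1 (−1.22 ± 0.22, adjusted p = 0.00657) and 1.81-fold for Col4a2 (−0.85 ± 0.22, adjusted p = 0.0399). Col4a5, a chain of another collagen IV network, was at 274, 256 and 181 CPM in the Veh libraries, 149, 119 and 151 in the rhWnt3a libraries, and 146, 155 and 241 in the rhWnt3aOSMI libraries. It had −0.76 ± 0.23, adjusted p = 0.0712 with rhWnt3a and was not called, though its groups did not overlap. Col4a4 had 8 to 24 counts per library and 0.47 ± 0.39, adjusted p = 0.617.

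Col8a1 (ENSMUSG00000068196, chr16:57624258-57754737, minus strand), the first chain of the net-forming collagen VIII of vessel walls and cornea, was the 1 collagen gene that rose. It measured 219.8, 219 and 214 CPM in the Veh libraries, 497, 517 and 494 in the rhWnt3a libraries, and 439, 447 and 638 in the rhWnt3aOSMI libraries. The libraries were close together within Veh and within rhWnt3a, and the lowest rhWnt3a library was above the highest Veh library, a 2.31-fold rise (1.21 ± 0.16, adjusted p = 0.00128; 1.18 within side A and 1.27 within side B). Col8a2, the other chain of collagen VIII, went the opposite way at much lower counts: 41, 29 and 37 counts with Veh, 13, 4 and 13 with rhWnt3a, and 5, 2 and 8 with rhWnt3aOSMI (−1.84 ± 0.47, adjusted p = 0.0384). Col10a1, the collagen of hypertrophic cartilage, had 18, 14 and 17 counts with Veh, 4, 3 and 2 with rhWnt3a, and 0, 0 and 5 with rhWnt3aOSMI. Its difference with rhWnt3a (−2.42 ± 0.71, adjusted p = 0.0677) was not called, and it overlaps Nt5dc1 on the opposite strand, which held 4445 counts over the 9 libraries against 63 for Col10a1, so that without strand in the counting their reads cannot be told apart.

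Neither chain of collagen I was called with rhWnt3a, nor were Col3a1 and the chains of collagen V, whereas the also abundant Col11a1, given above, fell. Col1a1 measured 11008, 11673 and 7485 CPM in the Veh libraries, 7654, 5798 and 7437 in the rhWnt3a libraries, and 3191, 2707 and 6281 in the rhWnt3aOSMI libraries, and Col1a2 9481, 10263 and 8313 CPM in the Veh libraries, 8709, 7817 and 8727 in the rhWnt3a libraries, and 4751, 4329 and 7867 in the rhWnt3aOSMI libraries. Veh replicate 3 lay at the level of the rhWnt3a libraries in Col1a1, and the values were −0.53 ± 0.32, adjusted p = 0.437 for Col1a1 and −0.15 ± 0.24, adjusted p = 0.827 for Col1a2, with 95% intervals of −1.25 to 0.19 and −0.68 to 0.38. Of the fibril-shaping collagen V, Col5a2 was at 2054, 2214 and 2207 CPM in the Veh libraries, 1538, 1558 and 1576 in the rhWnt3a libraries, and 936, 815 and 1435 in the rhWnt3aOSMI libraries, with −0.47 ± 0.21, adjusted p = 0.237 and no overlap between Veh and rhWnt3a. Col5a1 measured 974, 1049 and 832 CPM in the Veh libraries, 947, 669 and 948 in the rhWnt3a libraries, and 515, 442 and 831 in the rhWnt3aOSMI libraries (−0.15 ± 0.25, adjusted p = 0.83). The log2 fold changes of the collagen VI chains were −0.52, −0.45 and −0.11 for Col6a1, Col6a2 and Col6a3, with adjusted p of 0.3, 0.511 and 0.922, none of them called.

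The calls of Col11a1, Col27a1, Col9a1, Col4a1 and Col8a1 with rhWnt3a held in all 9 fits that each left out a library. That of Col4a2 was lost in 6 (adjusted p at most 0.17), and those of Col8a2 and Col9a3 in 7 each (at most 0.141 and 0.174). The count of called collagen genes was 5 without Veh replicate 1, without Veh replicate 2 and without any 1 of the rhWnt3a libraries, against 8 with all.

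**Figure D2:**
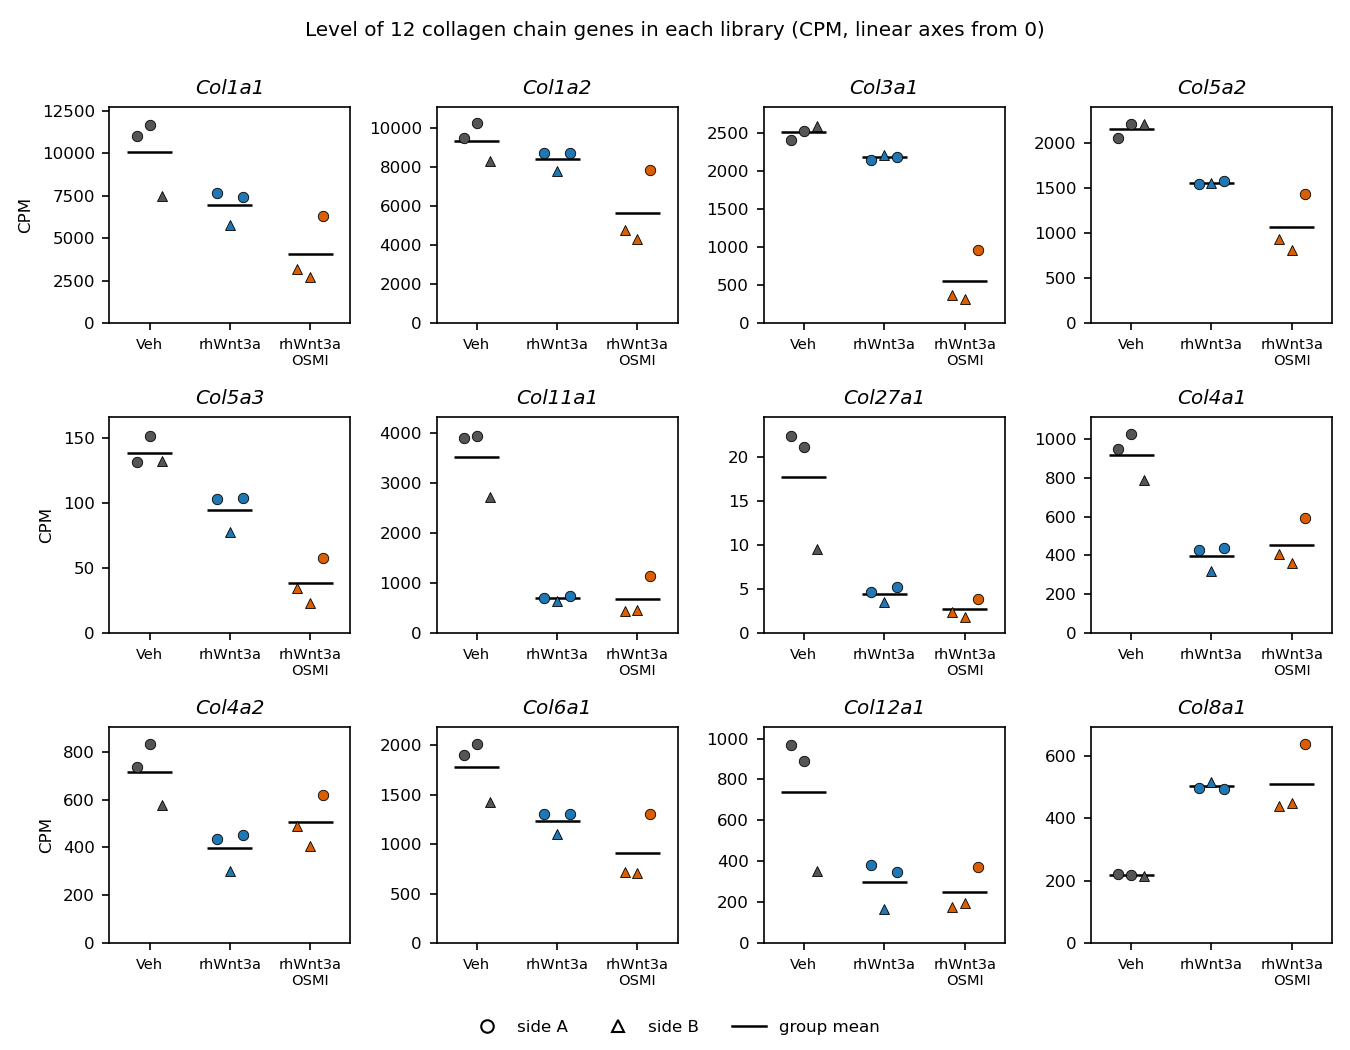
Level of 12 collagen chain genes in CPM (y axes, linear and starting at 0, each gene with its own scale) in the 9 libraries by group, with circles for side A, triangles for side B and bars for group means. Col11a1 and Col27a1 drop with rhWnt3a, Col8a1 rises from 214 to 219.8 CPM to 494 to 517, and Col3a1 stays between 2145 and 2219 CPM with rhWnt3a and falls to 317 to 965 when OSMI is present.

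The second comparison asks what the O-GlcNAc transferase inhibitor changed in cells given rhWnt3a. Col3a1, Col5a3 and Col16a1 fell, and no collagen gene was called as higher. These are 3 of 26 tested collagen genes, where 4.74% of all tested genes were called, 3.05% lower and 1.69% higher. At an unadjusted p under 0.05 with the same fold threshold edgeR gave 6 lower and 0 higher, where 16.2% of all tested genes passed, and DESeq2 on all 9 libraries gave 3 lower and 0 higher, where 9.26% passed. The edgeR fit on the 6 libraries of this comparison alone called 0 of 23 tested collagen genes and 2.55% of all genes. The median log2 fold change of the 26 genes was −0.35, beside −0.01 over all tested genes, with 18 values below 0, and in 5 genes all rhWnt3aOSMI libraries lay below all rhWnt3a libraries (0 above), where the groups did not overlap for 33.7% of all tested genes, 17% lower and 16.7% higher. This comparison uses the same rhWnt3a libraries as the first, so a value of one is not independent of the other.

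Col3a1 (ENSMUSG00000026043, chr1:45311538-45349706, plus strand) encodes the single chain of collagen III, which forms fibrils with collagen I in soft tissues and bone marrow stroma. It measured 2414, 2526 and 2595 CPM in the Veh libraries, 2145, 2219 and 2189 in the rhWnt3a libraries, and 364, 317 and 965 in the rhWnt3aOSMI libraries. The rhWnt3aOSMI libraries lay below all others, with replicate 3 at 965 CPM well above replicates 1 and 2, a 3.98-fold fall against rhWnt3a (−1.99 ± 0.37, adjusted p = 0.017; −1.17 within side A and −2.71 within side B). With rhWnt3a alone it was not called (−0.20 ± 0.36, adjusted p = 0.852), though the rhWnt3a libraries lay below the Veh libraries. Its share of the collagen FPKM went from 7.39% ± 1.0 with rhWnt3a to 2.6% ± 0.676 with rhWnt3aOSMI. Col5a2, its neighbor on chromosome 1, had −0.55 ± 0.21, adjusted p = 0.153 and was not called, although its rhWnt3aOSMI libraries too lay below all rhWnt3a libraries.

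Col5a3 (ENSMUSG00000004098, chr9:20770050-20815067, minus strand), a less common chain of collagen V, measured 131, 151 and 132 CPM in the Veh libraries, 103, 77.8 and 103 in the rhWnt3a libraries, and 34.2, 23.1 and 57.6 in the rhWnt3aOSMI libraries. Each group lay below the one before it without overlap, and the second step was called, at 2.47-fold lower (−1.31 ± 0.28, adjusted p = 0.0311). Col16a1 (ENSMUSG00000040690, chr4:130047840-130099283, plus strand), a fibril-associated collagen, measured 58.4, 69.2 and 80.1 CPM in the Veh libraries, 84.9, 89.5 and 85.1 in the rhWnt3a libraries, and 41.3, 30.4 and 60.5 in the rhWnt3aOSMI libraries. All 3 rhWnt3a libraries lay above the Veh libraries without a call (0.32 ± 0.22, adjusted p = 0.522), and it was lower by 1.96-fold when OSMI was added (−0.97 ± 0.23, adjusted p = 0.0408). Against Veh, the libraries with OSMI had −0.65 ± 0.23, adjusted p = 0.0824, with overlapping groups.

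The 3 calls rest on few libraries. Without rhWnt3aOSMI replicate 3, 9 collagen genes were called, all lower: Col1a1, Col1a2, Col5a1, Col5a2, Col6a1 and Col6a2 beside the 3. Without any 1 of the rhWnt3a libraries, or without rhWnt3aOSMI replicate 1 or 2, 0 were called by edgeR, and without Veh replicate 1 or 2, 1 was. In these 9 fits the log2 fold change of Col3a1 ran from −2.68 to −1.67 with an adjusted p of at most 0.0799, that of Col5a3 from −1.73 to −1.01 (at most 0.128) and that of Col16a1 from −1.27 to −0.73 (at most 0.146). Collagen I shows the same unevenness in its levels: with rhWnt3aOSMI, Col1a1 was at 6281 CPM in replicate 3 and at 3191 and 2707 in the others. Its log2 fold change against rhWnt3a was −0.78 ± 0.32, adjusted p = 0.191 and that of Col1a2 −0.58 ± 0.24, adjusted p = 0.193, neither called. Within side A they were −0.26 and −0.15, and within side B −0.98 and −0.79.

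The genes that rhWnt3a had changed most were not called when OSMI was added. Col11a1 had −0.03 ± 0.34, adjusted p = 0.96 (95% interval −0.79 to 0.72), with rhWnt3aOSMI replicates 1 and 2 below and replicate 3 above the rhWnt3a libraries, and its value was above 0 under 5 of 24 alternatives. Col8a1 had 0.01 ± 0.16, adjusted p = 0.964 (95% interval −0.35 to 0.37), with replicates 1 and 2 below and replicate 3 above the rhWnt3a libraries, and a value below 0 under 6 of 24 alternatives. Col4a1 and Col4a2 had 0.20 ± 0.22, adjusted p = 0.595 and 0.35 ± 0.22, adjusted p = 0.367, Col27a1 −0.73 ± 0.38, adjusted p = 0.283, and Col9a3 0.84 ± 0.38, adjusted p = 0.226. The value of Col4a1 was below 0 without rhWnt3aOSMI replicate 3. Of the fibril-associated Col12a1, at 966, 890.1 and 354 CPM in the Veh libraries, 381, 165 and 349 in the rhWnt3a libraries, and 177, 197 and 371 in the rhWnt3aOSMI libraries, the change with OSMI was −0.26 ± 0.44, adjusted p = 0.739.

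The third comparison sets cells with both agents against Veh, and shares its libraries with the first 2. Here Col1a1, Col3a1, Col5a2, Col5a3, Col11a1, Col27a1, Col4a1, Col6a1, Col6a2, Col8a2, Col9a1, Col10a1 and Col12a1 were lower and Col8a1 was higher. That is 14 of 26 tested collagen genes, 1 higher and 13 lower, where 14.2% of all tested genes were called, 9.34% lower and 4.84% higher. The median log2 fold change was −0.85, beside −0.01 over all tested genes, and 23 of 26 values were below 0. Col8a2, Col9a1 and Col10a1, 3 of the 13 lower genes, passed the filter only through Veh, the group where they are high. With at least 10 counts in every library, 9 of 21 were called, 1 higher and 8 lower (13.8% of all genes), and the median was −0.70. In 16 genes all rhWnt3aOSMI libraries lay below all Veh libraries and in 1 above, where the groups did not overlap for 38.8% of all tested genes, 19.5% lower and 19.3% higher. Of the 9 tested fibrillar collagen genes, all 9 lay lower without overlap and 6 were called.

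Against Veh, collagen I fell in its first chain, with Col1a1 2.48-fold lower (−1.31 ± 0.33, adjusted p = 0.0241), while Col1a2 was 1.66-fold lower without a call (−0.73 ± 0.24, adjusted p = 0.0705, 95% interval −1.26 to −0.19). Col3a1 was 4.58-fold lower (−2.19 ± 0.37, adjusted p = 0.00369) and Col5a3 3.61-fold (−1.85 ± 0.29, adjusted p = 0.00223). Col5a2 was lower by 2.03-fold (−1.02 ± 0.21, adjusted p = 0.00934), and Col5a1 had −0.67 ± 0.25, adjusted p = 0.0986. Col1a1, Col6a1, Col6a2, Col5a2, Col12a1 and Col10a1 were thus called here and at neither step alone.

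The beaded-filament collagen VI was lower in 2 of its 3 main chains. Col6a1 (ENSMUSG00000001119, chr10:76708792-76726168, minus strand) measured 1900.3, 2017 and 1425 CPM in the Veh libraries, 1309.9, 1104 and 1306 in the rhWnt3a libraries, and 721, 705 and 1306 in the rhWnt3aOSMI libraries (−0.97 ± 0.26, adjusted p = 0.0306). Col6a2 (ENSMUSG00000020241, chr10:76595762-76623630, minus strand) measured 1339, 1407 and 959.7 CPM in the Veh libraries, 993, 776 and 953 in the rhWnt3a libraries, and 431, 418 and 927 in the rhWnt3aOSMI libraries (−1.06 ± 0.31, adjusted p = 0.0435). In both, rhWnt3aOSMI replicate 3 stood at the level of rhWnt3a and the other 2 well below. Col6a3 (ENSMUSG00000048126, chr1:90765923-90843971, minus strand) measured 1809, 1925 and 1049 CPM in the Veh libraries, 1893, 699 and 1825 in the rhWnt3a libraries, and 1241, 1152 and 1665 in the rhWnt3aOSMI libraries, with overlapping groups and low values in Veh replicate 3 and rhWnt3a replicate 2, and had −0.24 ± 0.37, adjusted p = 0.697 (95% interval −1.06 to 0.58). Its sign changed under 1 to 4 of 24 alternatives in each of the 3 comparisons. Col12a1 (ENSMUSG00000032332, chr9:79598991-79718831, minus strand), which links fibrils to other matrix, was called against Veh (−1.57 ± 0.45, adjusted p = 0.0412), but Veh replicate 3 at 354 CPM lay below rhWnt3aOSMI replicate 3 at 371.

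Col11a1, Col27a1, Col9a1 and Col8a1 were called against Veh here as with rhWnt3a alone, at −2.37 ± 0.36, −2.71 ± 0.38, −4.43 ± 0.50 and 1.22 ± 0.16, with adjusted p of 0.00195, 0.00126, 0.000436 and 0.00106. Col4a1 was called (−1.02 ± 0.22, adjusted p = 0.0123) and Col4a2 was not (−0.50 ± 0.22, adjusted p = 0.158). Col8a2 had −2.84 ± 0.52, adjusted p = 0.00559 and Col10a1 −3.24 ± 0.79, adjusted p = 0.0215, both from single-digit counts with OSMI. The calls of Col3a1, Col5a3, Col11a1, Col27a1, Col9a1, Col8a1 and Col8a2 held in all 9 fits that each left out a library. Those of the other 7 were each lost without rhWnt3aOSMI replicate 1 and without replicate 2, where 7 collagen genes were called. Without Veh replicate 1 or 2 the count was 8, against 14 with all libraries.

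**Figure D3:**
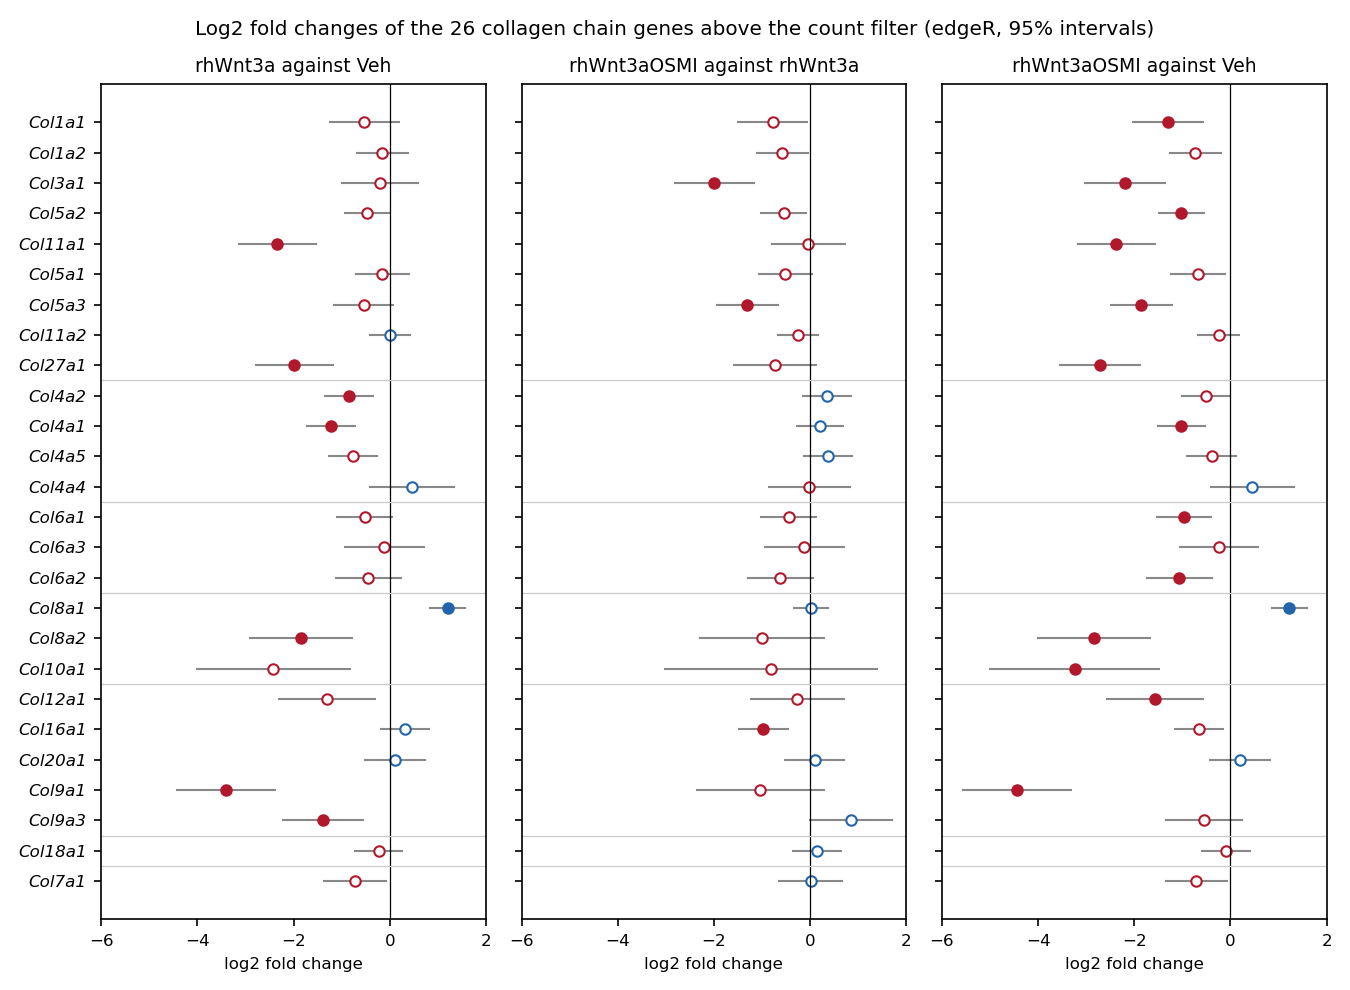
Log2 fold changes (x axes) with 95% intervals of the 26 tested collagen chain genes in the 3 comparisons, grouped by collagen class with grey lines between classes. Filled circles were called and open ones were not, with red below 0 and blue above. Col8a1 is the 1 filled blue circle with rhWnt3a (1.21) and with rhWnt3aOSMI against Veh (1.22), and the fibrillar genes in the upper rows all lie left of 0 in the right panel.

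Ratios between chains were compared for 10 pairs, of which 5 are given here and none passed an adjusted p of 0.05, which 3 libraries a group cannot reach. On the FPKM scale Col1a1/Col1a2, the chains of collagen I, was 2.2, 2.15 and 1.7 with Veh, 1.66, 1.4 and 1.61 with rhWnt3a and 1.27, 1.18 and 1.51 with rhWnt3aOSMI. It was lower in every library with rhWnt3a, alone or with OSMI, than in any Veh library. Col4a1/Col4a2, from the genes with overlapping starts, was 1.14, 1.09 and 1.21 with Veh, 0.873, 0.928 and 0.862 with rhWnt3a and 0.738, 0.788 and 0.848 with rhWnt3aOSMI, so that no library of one group overlapped with another. Col11a1/Col11a2 went from 271, 259 and 192 to 48.9, 43.9 and 49.8 with rhWnt3a and was 32.1, 50.4 and 81 with rhWnt3aOSMI. Col3a1/Col1a1 was 0.147, 0.145 and 0.232 with Veh, 0.187, 0.256 and 0.197 with rhWnt3a and 0.0763, 0.0783 and 0.103 with rhWnt3aOSMI, lower in each rhWnt3aOSMI library than in all others. In exact permutation tests of 10 ratios in 3 comparisons (two-sided, 30 tests) the ratios named here as not overlapping had p = 0.1, the smallest value possible, and 0.176 after Benjamini-Hochberg adjustment. Within sides, the log2 difference with rhWnt3a was −0.41 and −0.28 for Col1a1/Col1a2 and −0.36 and −0.38 for Col4a1/Col4a2. Col6a1/Col6a2 ran from 2.51 to 3.20 over all libraries, with overlapping groups in all 3 comparisons.

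**Figure D4:**
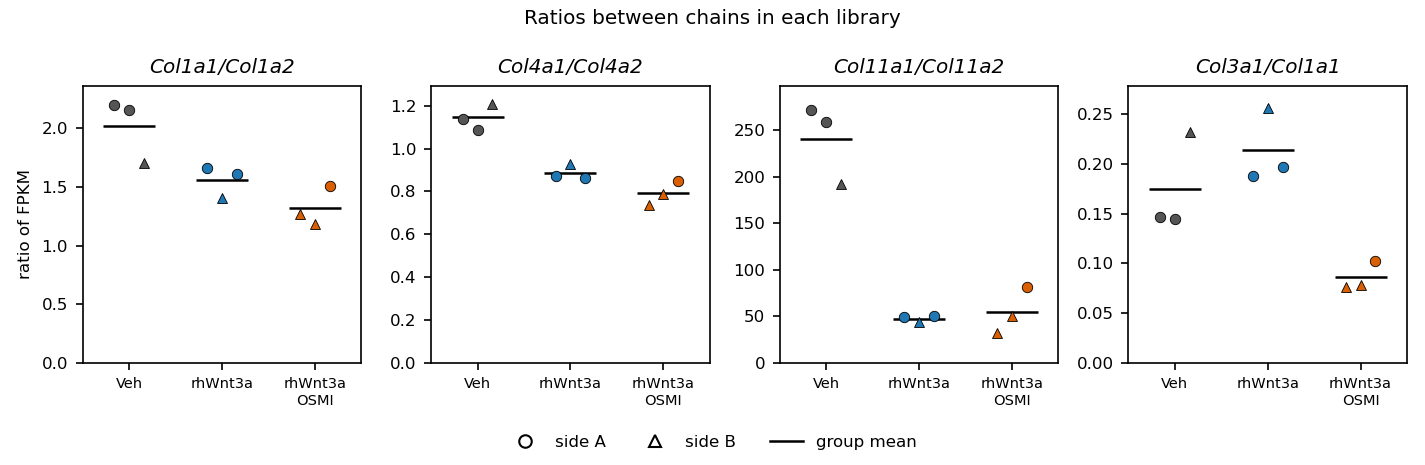
Ratios of FPKM between chains (y axes, starting at 0) in the 9 libraries by group, with circles for side A, triangles for side B and bars for group means. Col1a1/Col1a2 falls from 1.70 to 2.20 with Veh to 1.18 to 1.51 with rhWnt3aOSMI, Col4a1/Col4a2 lies above 1 only in Veh, Col11a1/Col11a2 drops with rhWnt3a, and Col3a1/Col1a1 is lowest with rhWnt3aOSMI.

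Within each side of the axis that parts the libraries, all called collagen genes kept their sign, 8 of 8, 3 of 3 and 14 of 14 in the 3 comparisons. Where the groups do not overlap, any split of the libraries must keep the sign. That holds for every one of these calls except Col12a1 against Veh (−1.32 within side A and −0.92 within side B), so the kept signs are no test of the sides. The medians of the 2 sides lay further apart where OSMI was involved. The median log2 fold change of the 26 tested genes with rhWnt3a was −0.54 within side A and −0.60 within side B. For rhWnt3aOSMI against rhWnt3a it was −0.06 within side A, which holds 1 rhWnt3aOSMI library, and −0.44 within side B, which holds 1 rhWnt3a library, and against Veh −0.58 and −0.96. With 1 or 2 libraries a group, these values carry no test. Leaving out the 3 libraries that stood apart gave 14, 14 and 20 called collagen genes, beside 18.1%, 12.7% and 23.7% of all tested genes, but what is left are the closest pairs, chosen for their closeness, and in it the rhWnt3aOSMI libraries are all of side B and the others all of side A, so that OSMI and side cannot be told apart there.

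**Figure D5:**
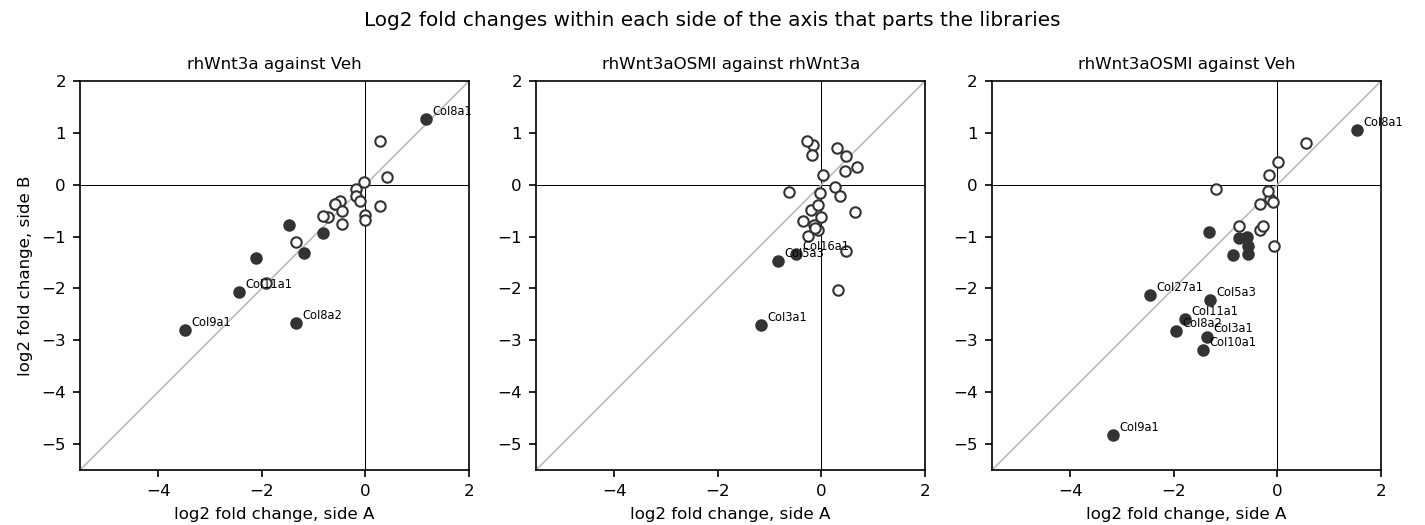
Log2 fold change within side A (x axes) against that within side B (y axes) for the 26 tested collagen chain genes in the 3 comparisons, with filled circles for called genes, some of which are named, and a grey line of equality. With rhWnt3a most points lie near the line, from Col9a1 at −3.49 and −2.81 to Col8a1 at 1.18 and 1.27, and for rhWnt3aOSMI against rhWnt3a Col3a1 lies at −1.17 and −2.71.

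The remaining 17 collagen genes were not tested. Highest counts in any library were 15 for Col14a1, 11 for Col4a3, 9 for Col17a1, 8 for Col6a4 and Col23a1, 7 for Col28a1 and Col9a2, 6 for Col24a1, 4 for Col4a6 and Col6a6, 2 for Col6a5 and Col26a1, and 1 for Col15a1 and Col25a1. Col13a1, Col19a1 and Col22a1 had 0 counts in all libraries, which allows up to 3 counts in each, and the limit covers counting error only. Of the tested genes not yet described, Col18a1 of basement membranes, Col20a1 and the anchoring fibril collagen Col7a1 were called in no comparison. Col18a1 had 125 to 204 counts per library and overlaps Slc19a1, with 9452 counts against 1521 over all libraries, on the opposite strand. Col20a1 had 64 to 129 counts and overlaps 9230112E08Rik on its own strand. Col7a1, at 21 to 54 counts, had −0.72 ± 0.29, adjusted p = 0.183 with rhWnt3a and −0.71 ± 0.29, adjusted p = 0.127 with both agents. Near-identical sequence in another gene (at least 97% over 100 bases) was found for 3 of 26 genes and covered 2.53% of Col3a1, 2.59% of Col5a1 and 7.68% of Col9a3.

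Genes that make and handle collagen were taken from lists. With rhWnt3a, where 8.78% of all tested genes were called, 2 of 21 tested genes of folding and chain modification were called: P4hb, the common subunit of prolyl 4-hydroxylase and a disulfide isomerase, rose (0.55 ± 0.14, adjusted p = 0.0373) and Plod2, a lysyl hydroxylase of the crosslinking sites, fell (−0.64 ± 0.12, adjusted p = 0.00816). Of 9 tested genes of procollagen processing and crosslinking, where 5.86% of all tested genes fell, Lox, which starts crosslinks, fell (−0.77 ± 0.14, adjusted p = 0.00659) from 2912, 2867 and 2586 CPM to 1687, 1607 and 1597. Of 8 tested receptors, Ddr1 fell (−1.02 ± 0.21, adjusted p = 0.0129), and of 8 tested genes of collagen breakdown, Mmp2 fell (−1.18 ± 0.20, adjusted p = 0.00544) and Mmp13 (1.59 ± 0.20, adjusted p = 0.00086) and Mmp8 (adjusted p = 0.0328) rose, Mmp8 from 0 counts in all Veh libraries to 6, 13 and 12. Mmp8 thus passed the filter only through libraries given rhWnt3a, alone or with OSMI, and its rise rests on few counts.

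When OSMI was added, 7 of 21 tested genes of the folding list fell and 0 rose (3.05% and 1.69% of all tested genes), with a median log2 fold change of −0.39, where edgeR on unadjusted p gave 0 higher and 8 lower and DESeq2 0 and 7. P4hb measured 1061, 1036 and 1169 CPM in the Veh libraries, 1510.3, 1792 and 1480.3 in the rhWnt3a libraries, and 589.8, 578 and 585 in the rhWnt3aOSMI libraries, so that all 3 rhWnt3aOSMI libraries were close together and far below the rest (−1.45 ± 0.14, adjusted p = 0.00149). The others were Fkbp14 (−1.21 ± 0.19, adjusted p = 0.0088), Plod2 (−1.17 ± 0.12, adjusted p = 0.00169), Plod1 (−0.92 ± 0.16, adjusted p = 0.0137), P4ha1, P4ha2 and Sec23a. Pcolce, which speeds the trimming of procollagen, fell from 708, 967 and 750.5 CPM to 288, 281 and 267 (−1.54 ± 0.16, adjusted p = 0.00171), and Tll1, a trimming protease, fell too (−1.65 ± 0.33, adjusted p = 0.0237), 2 of 9 tested in that list, where 3.05% of all tested genes fell. In rhWnt3aOSMI replicate 3, where Col1a1, Col6a1 and Col6a2 stood at 6281, 1306 and 927 CPM, P4hb, Plod2 and Pcolce were at 585, 68.9 and 267 CPM, within the range of, or close to, the other 2 OSMI libraries. Of the breakdown list Mmp2 (−1.18 ± 0.20, adjusted p = 0.0124), Mmp13 (−2.03 ± 0.20, adjusted p = 0.00149) and Ctsk (−1.46 ± 0.24, adjusted p = 0.0103) fell, 3 of 8 against the same 3.05%, and of the receptors 0 of 8 were called (edgeR, with a median of 0.38 and 7 values above 0), where edgeR on unadjusted p gave 2 higher and 0 lower and DESeq2 2 and 0. Against Veh, 8 genes of folding fell and Mia2 rose, out of 21, and 4 of 9 genes of processing (Bmp1, Adamts2, Pcolce and Lox) fell, where 9.34% of all tested genes fell and 4.84% rose.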

How the data were processed

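Poly-A RNA from ST2 cells was sequenced as 9 libraries, 3 a group, taken at 72 h. The authors deposited 1 table of 43 columns. It gives reads per gene as raw counts, without normalization, and FPKM values, which are the deposited counts divided by gene length and by a library total that differed from the sum of counts by at most 5.32%. The FPKM values were used to compare levels between genes and the counts for tests. The submitters' processing notes name CASAVA, fastp, HISAT2 2.0.5, featureCounts 1.5.0-p3 and the build mm10. Whether strand was counted is not given in the sources used here. The table also holds the authors' fold changes, p-values and group means of each comparison, which were not used.

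The tests used edgeR 4.0.16 (R 4.3.3) with filterByExpr (minimum count 10, minimum total 15), TMM scaling and a glmQLFit of the 3 groups over 14004 genes, with two-sided glmQLFTest and Benjamini-Hochberg adjustment over all tested genes. CPM values used TMM-scaled totals, and ± in log2 fold changes is the standard error. The labels do not say that replicates came from separate cultures, so p-values measure the spread between these libraries. The script was tested on simulated counts. A collagen gene has its values printed by library if called in at least 1 comparison or if it belongs to collagens I, III, V, VI (first 3 chains) or IV (first 2) or is the partner of such a chain. The collagen genes and the lists were chosen with earlier results of these data known. Lists are described by counts and medians. Promoters are from RefSeq (GRCm38.p6), with entries for 35 of 43 genes, near-identical copies from BLAST 2.17.0 on GENCODE M21 transcripts, and alternatives include DESeq2 1.42.0, other filters and scalings, a replicate block, a gene length correction and leaving out each library.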

Additional observations from a re-analysis of the deposited data

How the results depend on the processing

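Over 24 alternatives per comparison, the 25 calls of single collagen genes kept their direction in all 594 values and stayed called in 494. Unadjusted p and a log2 fold threshold of 1 reuse the main fit, so no sign could turn there, and unadjusted p could lose no call. Except for Col12a1 against Veh, the groups of each call do not overlap, so leaving out libraries could hardly turn a sign. The kept directions are therefore no test of the calls. Counts of called collagen genes moved by more than 1.5 times as follows. With rhWnt3a (8 genes) they were 13 with DESeq2 on the 6 libraries (11.3% of all genes called), 4 of 21 with at least 10 counts in every library (8.13%), 14 with the side of the axis as a term (14.5%) and 14 without the 3 libraries that stood apart (18.1%). For OSMI added to rhWnt3a (3 genes) they were 0 with edgeR on the 6 libraries (2.55% of all genes), 6 on unadjusted p (16.2%), 1 with the replicate block (1.66%), 7 with the side as a term, 2 of them higher (28.8%, so that 7 of 26 does not exceed the share of all genes), 9 with a correction for gene length and GC (7.81%), 14 without the 3 libraries (12.7%) and 9 with side and length correction together (22.9%). For rhWnt3aOSMI against Veh (14 genes) they were 9 of 21 with at least 10 counts in every library (13.8%) and 9 with the replicate block (9.26%). Leaving out single libraries gave 5 to 10, 0 to 9 and 7 to 17. The correction for length and GC, leaving out the 3 libraries together, and side with length together were chosen after seeing the data.

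Same-numbered libraries did not deviate together throughout. Their correlations were mixed, at −0.49 to 0.44, −0.31 to 0.37 and −0.41 to −0.20 in the 3 comparisons, with 1, 2 and 0 of them above 0.1. The replicate numbers were therefore not taken as pairs. The replicate block gave 6, 1 and 9 called genes, and 8, 3 and 14 with a gene length correction.

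Signs turned 30 times, only for values not called. Col11a2 with rhWnt3a was −0.0056 with RLE scaling, −0.0052 and −0.0031 with DESeq2 on 9 and 6 libraries, −0.012 without a filter, −0.0032 with at least 10 counts, −0.021 with edgeR on 6 libraries, −0.055 without the 3 libraries and −0.012 to 0.058 without single ones. For OSMI added to rhWnt3a, Col11a1 was 0.0054 with at least 10 counts, 0.060 with the side and −0.62 to 0.24 without single libraries. Col8a1 there was −0.10 with the length correction, −0.11 with the block and length, −0.11 with length and GC, −0.17 without the 3 libraries, −0.11 with side and length, and −0.18 (without rhWnt3aOSMI replicate 3) to 0.15 without single libraries. Col4a1 there was −0.037 (without that replicate) to 0.38 without single libraries and −0.18 without the 3 libraries, and Col12a1 0.14 with the side. Col6a3 was 0.29 and 0.11 with the side for OSMI against rhWnt3a and against Veh, and −0.43 to 0.12 and −0.34 to 0.22 without single libraries for OSMI against rhWnt3a and rhWnt3a against Veh. The cause was not tested. Depth limits the genes with few counts: Col10a1, Col8a2 and Col9a1 had 16 counts or fewer in every library with rhWnt3a.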

Other observations

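Among genes that respond to transforming growth factor beta, a signal known to raise collagen in fibroblasts, Tgfbi, Tagln and Acta2 fell with rhWnt3a in the edgeR test. Acta2, smooth muscle actin, measured 2234, 2627 and 2634 CPM in the Veh libraries, 506, 670.3 and 480.3 in the rhWnt3a libraries, and 1175, 1164 and 583 in the rhWnt3aOSMI libraries (log2 fold change −2.18 ± 0.27, adjusted p = 0.000871 with rhWnt3a). When OSMI was added, Tgfbi, Skil and Postn fell. Postn, a matrix protein that binds collagen I, measured 5668, 5865 and 4855 CPM in the Veh libraries, 2770.1, 2982 and 2735 in the rhWnt3a libraries, and 599, 653 and 1331 in the rhWnt3aOSMI libraries and fell by 1.72 on the log2 scale (adjusted p = 0.0112). As with Col1a1 and Col3a1, its level in rhWnt3aOSMI replicate 3 was the highest of that group, whereas Acta2 was lowest there. Tgfbi had 34, 13 and 28 counts with Veh, 7, 7 and 7 with rhWnt3a, and 0, 0 and 1 with rhWnt3aOSMI. It reached 10 counts in the Veh libraries alone and so passed the filter only through the group where it is high. Its fall when OSMI was added rests on counts under that minimum in both groups.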
